A study of Mus musculus with 2 samples.

Results

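The mRNAs of 65 translation factors, out of 12836 genes measured, were compared between mouse morulae depleted of Nat10 and control morulae. The 65 genes were taken by a rule on their symbols, with earlier results of these data known. They comprise the initiation factors (Eif genes) with the eIF4E-binding inhibitors and the subunits of the exchange factor eIF2B, the elongation factors (Eef genes) with the methyltransferases and the kinase that modify them, the release factors Etf1 and Gspt1, and the poly(A)-binding proteins Pabpc1 and Pabpc4. The kinases of eIF2, the Y-linked Eif2s3y and the synthetase-complex protein Eef1e1 were left out. The dsNat10 group was 1 library of ICR-strain morulae that had received an injection of double-stranded RNA for Nat10. The dsGFP group was 1 library of ICR-strain morulae that had received double-stranded RNA for GFP, a sequence foreign to the mouse. Both groups were therefore injected, and the design text gives 50 morulae without saying whether that is per library. The study concerns N4-acetylcytidine, an RNA modification written by Nat10, and how morulae become blastocysts. There is no replicate error, since each group is a single library, and every difference below describes these libraries.

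Translation begins when the small ribosomal subunit, carrying eIF1, eIF1A, eIF3, eIF5 and the initiator tRNA brought by eIF2, is loaded onto a capped mRNA by eIF4F and scans for a start codon. At the start codon eIF5 stimulates GTP hydrolysis by eIF2, eIF5B joins the large subunit, and eIF2B recharges eIF2 with GTP. In elongation eEF1A delivers aminoacyl-tRNAs, eEF1B recharges eEF1A, eIF5A helps at slow peptide bonds and eEF2 moves the ribosome along, and eRF1 with eRF3 ends the chain. The preimplantation embryo depends on this machinery as it replaces maternal stores with its own proteins.

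The libraries summed to 28303119 estimated reads in dsNat10 and 29139232 in dsGFP. Counts are given as reads, differences as ratios of CPM (reads scaled to library size by TMM) with an exact 95% counting interval in brackets, and levels as the deposited TPM, which correct for transcript length. Intervals cover counting error only, and PCR copies without molecular identifiers are not independent molecules. The log2 ratio is of CPM plus 1. A gene met the size rule with a mean of at least 5 CPM, a log2 ratio of 1 or more either way and an interval that excluded equality. Nat10 (chromosome 2, 103721258 to 103762954, GRCm38) had 37 reads in dsNat10 and 886 in dsGFP, 23.7-fold lower (17.1 to 33.9). Of 11 markers listed for morula cells, 10 were measured, all with a mean of 5 CPM or more, and summed to 8053 CPM in dsNat10 and 8654 CPM in dsGFP. The cumulus marker Amhr2, 1 of 5 on its list, had 29.1 CPM in dsNat10 and 33.8 CPM in dsGFP. For blood, endothelium and fibroblasts 4 of 7 markers summed to 92.2 CPM in dsNat10 and 73.3 CPM in dsGFP, with Col1a1 at 0 in dsNat10. The oocyte markers Zp3 and Gdf9, 2 of 6 listed, summed to 22.5 CPM in dsNat10 and 5.54 CPM in dsGFP, and the part of any of these cells in the results was not tested. In such pools, fewer cells of a type and less RNA per cell cannot be told apart.

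The start codons of the factors that select start codons are shown because some of these genes are known to be controlled through their own start sites. Mammalian eIF1 is known to restrain its own translation through a weak start context, and the mRNA of eIF5 is known for inhibitory upstream reading frames. The sequences run 5' to 3' from GENCODE M21 transcripts (GRCm38), with the annotated start codon in capitals.
Eif5: taagccaaaATGt
Eif1: tcgtatcgtATGt
Eif1b: tagtgtcgcATGt
Eif1ax: tttgcggccATGc
Eif5b: tgacaagcgATGg
Eif1ad: gaaaccagcATGt
Eif4g2: gccgccaaaGTGg
These start codons lie at chr12:111539616-111539618 (Eif5, plus strand), chr11:100320130-100320132 (Eif1, plus), chr9:120492811-120492813 (Eif1b, plus), chrX:159372400-159372402 (Eif1ax, plus), chr1:37998290-37998292 (Eif5b, plus), chr19:5368190-5368192 (Eif1ad, plus) and chr7:111081545-111081547 (Eif4g2, minus). Strong contexts have a purine 3 bases before the start codon and a G right after it. Eif1 and Eif1b had neither, as did Eif3b and Eef1akmt1, making 4 of the 61 translation factors with a mean of 5 CPM or more (6.56%), against 5.66% of the 8580 genes with a transcript at that level. Both features were present in 31 of 61 (50.8%), against 46.9% of those genes, but the order turned at 50 CPM or more, with 24 of 50 (48%) against 49.97% of 3514 genes. Of the 65 factors with a transcript, Eif4g2 alone was annotated with a GTG start. At least 1 ATG upstream of the start was present in 22 of the 61 (36.1%), against 49.3% of all genes, and at 50 CPM or more in 18 of 50 (36%), against 44.3%. The 626-base leader of Eif5 held 5, while that of Eif1 held 1.

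The translation factors were abundant, and their summed TPM was nearly level between the libraries. Together they took 2.81% of all TPM in dsNat10 and 2.79% in dsGFP. Eif5a, the hypusine-bearing elongation factor, alone made up 24.8% of that sum in dsNat10 and 26.0% in dsGFP. Together with Eef1a1, Eif2s2, Eef1g and Eif3k, Eif5a made up 45.5% in dsNat10 and 46.4% in dsGFP. Of the 65 genes, 61 had a mean of 5 CPM or more, and 41 had 200 CPM or more. The remaining 4 were Eif4ebp2, Eif4ebp3, Eif5a2 and the readthrough transcript Eef1akmt4-ece2. The level sum held differences in both directions, with 38 of the 61 below equality in CPM and 23 above. Among the 23 were Eif5 (1536 TPM in dsNat10 and 608 TPM in dsGFP) and Eif6 (1672 TPM in dsNat10 and 1134 TPM in dsGFP).

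**Figure D1:**
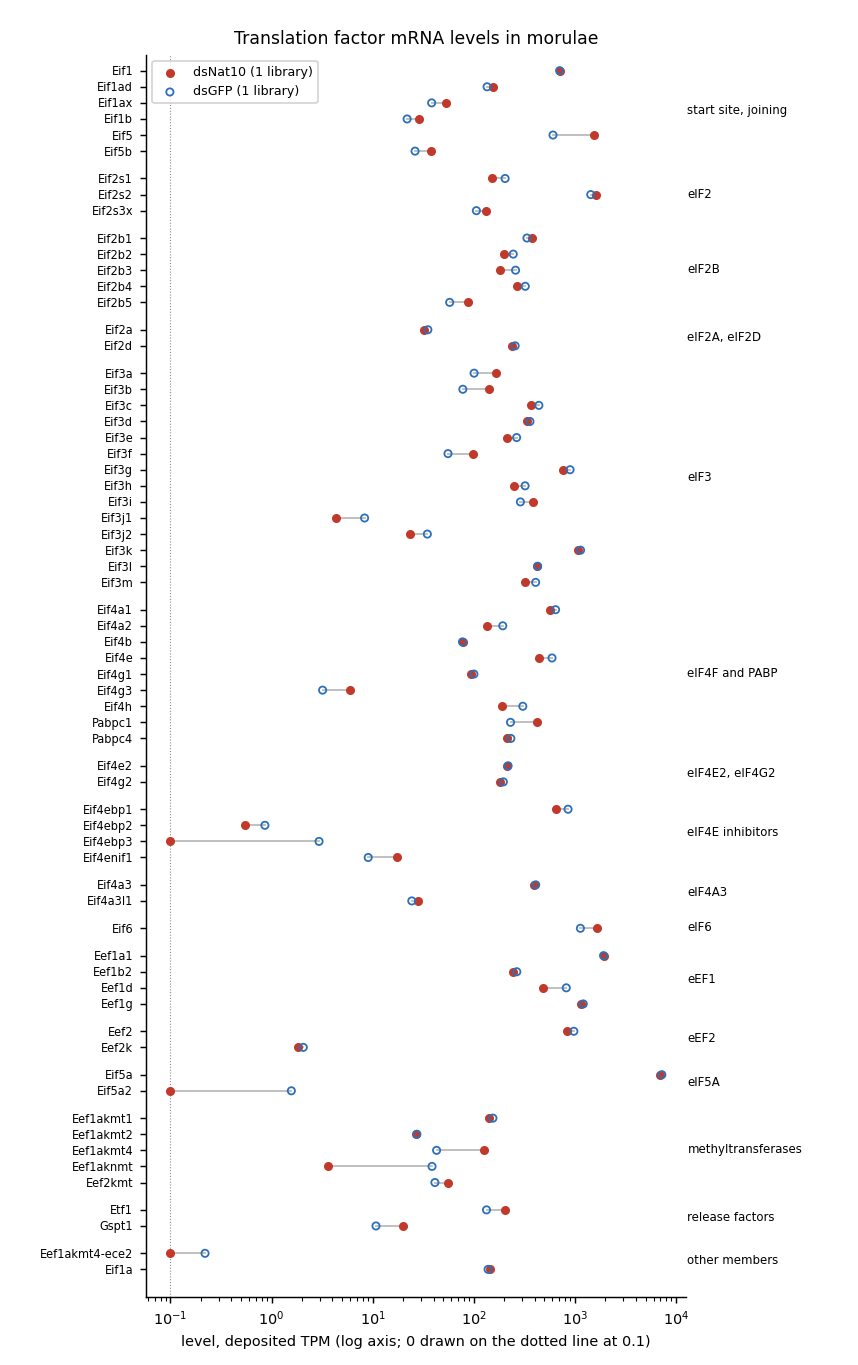
Deposited TPM (log axis) of each of the 65 genes in dsNat10 (filled red) and dsGFP (open blue), 1 library each, by role. Eif5a is highest at 6968 TPM in dsNat10 and 7247 TPM in dsGFP, and the 3 red points on the dotted line are listed at 0 in dsNat10.

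Large differences were few among these genes. By the size rule 2 of the 61 at 5 CPM or more were higher in dsNat10, Eif5 and Eef1akmt4, while 15.2% of all 8738 genes with at least that mean were higher. The share of the translation factors was 3.28%. On the other side 1 of 61 was lower, Eef1aknmt, or 1.64%, beside 15.3% of all genes. The calls over all genes lay mainly at low abundance, so the shares are also given at like abundance. At 200 CPM or more 1 of 41 was higher (Eif5, 2.44%), beside 1.60% of 1126 genes, and 0 of 41 were lower, beside 1.42%. At 50 CPM or more, a limit added with the values already known, 1 of 50 was higher, beside 4.71%, 0 were lower, beside 4.62%, and 32 lay below 0, beside 52.0%.

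Differences of 1.5-fold were more frequent, at shares near the background at 200 CPM or more. With the fold set at 1.5 instead of 2, 9 of 61 were higher (14.8%), beside 25.1% of all genes, and 6 were lower (9.84%), beside 23.8%. At 200 CPM or more 4 of 41 were higher (9.76%), beside 7.19%, and 3 were lower (7.32%), beside 8.88%. With a mean of 50 CPM or more, 6 of 50 were higher (12%), beside 13.3%, but 3 were lower (6%), beside 14.1%. The median log2 ratio of the 61 was -0.12, beside 0.01 for all genes, and 38 of 61 lay below 0 (62.3%), beside 49.5% of all genes. At 200 CPM or more the median was -0.15 and 29 of 41 lay below 0 (70.7%), beside a median of -0.04 and 55.1% of all genes. The median size of the log2 ratio, whatever its sign, was 0.28 for these 41 and 0.27 for the 1126. In deposited TPM, where most ratios shift up, 34 of the 59 factors with a mean of 5 TPM or more lay below 0. No share of all genes in TPM is given beside this count.

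**Figure D2:**
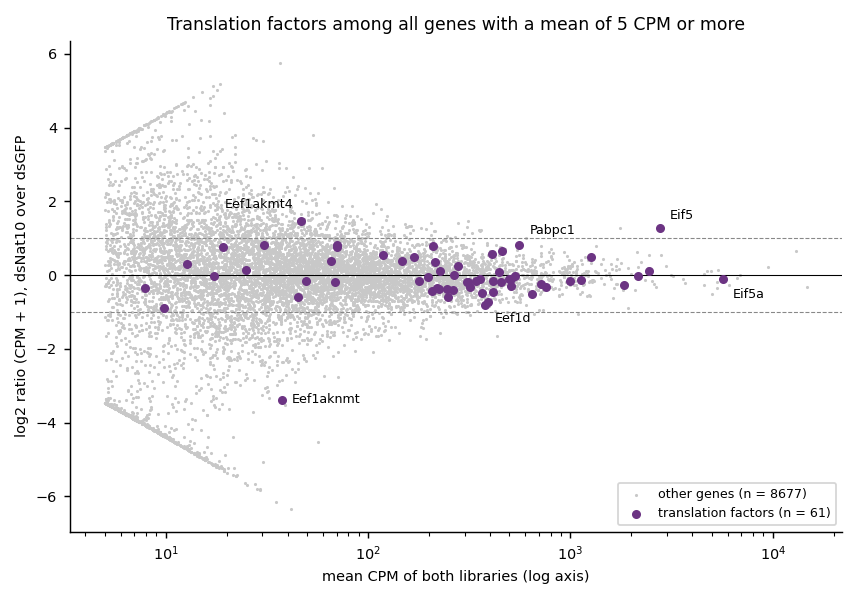
Log2 ratio of CPM plus 1 (dsNat10 over dsGFP) against mean CPM (log axis) for the 61 translation factors (purple) among all 8738 genes (the rest in grey) at 5 CPM or above, with dashed lines at a log2 ratio of 1 and -1. Eif5 stands above the upper line at 1.28, Eef1akmt4 above it at 1.48 and Eef1aknmt far below the lower line at -3.38.

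The group of factors that select the start codon and join the subunits counted Eif1ad and left out Eif1a. In it, 5 of 6 genes had ratios above 0, with a group median of 0.35. Eif5 (Entrez gene 217869, chromosome 12, 111538101 to 111546753), the GTPase activator of eIF2, had 112344 reads (1536 TPM) in dsNat10 and 46792 reads (608 TPM) in dsGFP and was 2.43-fold higher (2.40 to 2.45). Eif5 therefore stood above Eif1 in dsNat10, where it had 2.13 times the TPM of Eif1, and below it in dsGFP, where it had 0.860 times. Eif1, which keeps scanning strict, had 15003 reads (720 TPM) in dsNat10 and 15466 reads (707 TPM) in dsGFP and was 1.02-fold lower (0.998 to 1.04, so within counting error), with fractional counts and a ratio above 0 in TPM. Eif1ax, which promotes scanning, was 1.32-fold higher (1.26 to 1.38) with 4770 reads (52.7 TPM) in dsNat10 and 3656 reads (38.4 TPM) in dsGFP. The related Eif1a had 7589 reads (146 TPM) in dsNat10 and 7647 reads (139 TPM) in dsGFP and a log2 ratio of 0.00. Eif5b, the subunit-joining GTPase, was 1.40-fold higher (1.34 to 1.45) with fractional counts. Eif1b, a paralogue of Eif1, was 1.26-fold higher (1.09 to 1.46) at 28.7 TPM in dsNat10 and 21.9 TPM in dsGFP, and Eif1ad, an eIF1A-like protein of small-subunit assembly, was 1.09-fold higher (1.05 to 1.13). None of these 5 met the size rule, nor did Eif1a.

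The 3 subunits of eIF2, which carries the initiator tRNA, had ratios on both sides of equality. Eif2s1, the alpha subunit phosphorylated under stress, had 8757 reads (152 TPM) in dsNat10 and 12340 reads (204 TPM) in dsGFP and was 1.39-fold lower (1.36 to 1.43). Eif2s2, the beta subunit, was 1.08-fold higher (1.07 to 1.09) with 72818 reads (1616 TPM) in dsNat10 and 68033 reads (1435 TPM) in dsGFP, and Eif2s3x, the GTP-binding gamma subunit, was 1.19-fold higher (1.15 to 1.23) with 8646 reads (131 TPM) in dsNat10 and 7356 reads (106 TPM) in dsGFP. The subunits also differed widely in level, with Eif2s2 at 10.6 times the TPM of Eif2s1 in dsNat10 and 7.03 times in dsGFP. In eIF2B, the exchange factor of eIF2, the catalytic subunit Eif2b5 was 1.46-fold higher (1.39 to 1.53) and Eif2b1, the most abundant, was 1.06-fold higher (1.03 to 1.09) with 13106 reads (373 TPM) in dsNat10 and 12491 reads (336 TPM) in dsGFP. The others were lower, Eif2b2 1.28-fold lower, Eif2b3 1.30-fold lower and Eif2b4 1.25-fold lower, and the group median log2 ratio was -0.32. The alternative initiator-tRNA factors Eif2a and Eif2d were both lower, Eif2a 1.13-fold lower, and Eif2d 1.13-fold lower with 8319 reads (240 TPM) in dsNat10 and 9538 reads (257 TPM) in dsGFP.

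eIF3, the scaffold of the scanning complex, had 4 of 14 genes above 0 and 10 below, with a median of -0.22. Eif3b, part of the module with the beta-propeller subunits, had 7616 reads (142 TPM) in dsNat10 and 4416 reads (78.0 TPM) in dsGFP and was 1.74-fold higher (1.68 to 1.81). Eif3f, a subunit with an MPN domain, was 1.70-fold higher (1.60 to 1.82) with 2523 reads (98.6 TPM) in dsNat10 and 1496 reads (55.6 TPM) in dsGFP, and Eif3a, the largest subunit, was 1.58-fold higher (1.54 to 1.62) with 16055 reads (166 TPM) in dsNat10 and 10247 reads (101 TPM) in dsGFP. Eif3i was 1.27-fold higher (1.23 to 1.32). In all 4 the difference exceeded the counting interval, and 3 of them passed 1.5-fold. The subunits Eif3c, Eif3d, Eif3e, Eif3g, Eif3h, Eif3k, Eif3l and Eif3m were between 1.07-fold lower and 1.34-fold lower. Eif3k, the most abundant subunit, had 13984 reads (1084 TPM) in dsNat10 and 15346 reads (1138 TPM) in dsGFP. Eif3a, Eif3b and Eif3f thus stood below the median level of the 14 genes in each library, which was 284 TPM in dsNat10 and 306 TPM in dsGFP. The loosely bound subunit eIF3j is encoded by the near-identical Eif3j1 and Eif3j2, whose reads are split and fractional. Eif3j1 had 186 reads (4.32 TPM) in dsNat10 and 377 reads (8.32 TPM) in dsGFP and was 2.01-fold lower (1.68 to 2.40). Eif3j2 had 1023 reads (23.6 TPM) in dsNat10 and 1581 reads (34.8 TPM) in dsGFP and was 1.53-fold lower (1.41 to 1.66). Eif3j1 missed the size rule, which adds 1 to the CPM, with a log2 ratio of -0.90. Summed, both had 1209 reads in dsNat10 and 1958 in dsGFP, 1.60-fold lower (1.49 to 1.72). Eif3j1 also shares 1107 exon bases with Spg11 on the opposite strand, and SMART-seq2 libraries do not mark strand.

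In eIF4F, which binds the cap and unwinds the leader, the core subunits had ratios below 0. The cap-binding Eif4e had 15253 reads (437 TPM) in dsNat10 and 21979 reads (594 TPM) in dsGFP and was 1.43-fold lower (1.40 to 1.46). The helicase Eif4a1 had 18698 reads (570 TPM) in dsNat10 and 22248 reads (645 TPM) in dsGFP and was 1.18-fold lower (1.15 to 1.20), and the scaffold Eif4g1 was 1.11-fold lower (1.08 to 1.14). The helicase cofactor Eif4h had 8386 reads (192 TPM) in dsNat10 and 14121 reads (306 TPM) in dsGFP, 1.67-fold lower (1.62 to 1.71), while the other cofactor, Eif4b, had 5563 reads (78.3 TPM) in dsNat10 and 5779 reads (77.3 TPM) in dsGFP and an interval that included equality, with a log2 ratio just above 0 in TPM. Eif4a2, the paralogue of Eif4a1, had 5639 reads (134 TPM) in dsNat10 and 8626 reads (194 TPM) in dsGFP and was 1.51-fold lower (1.46 to 1.57), with fractional counts and 194 exon bases shared with Rfc4 on the opposite strand. Above 0 stood Eif4g3, a scarce second scaffold, 1.76-fold higher (1.56 to 2.0) with 701 reads (5.91 TPM) in dsNat10 and 402 reads (3.20 TPM) in dsGFP, and Pabpc1. The TPM ratio of Eif4g1 to Eif4g3 was 15.7 in dsNat10 and 31.4 in dsGFP.

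The cytoplasmic poly(A)-binding proteins, which bridge the tail of the mRNA to eIF4G, differed from each other. Pabpc1 had 20398 reads (424 TPM) in dsNat10 and 11681 reads (231 TPM) in dsGFP and was 1.76-fold higher (1.72 to 1.80). Pabpc4 had 12160 reads (214 TPM) in dsNat10 and 13910 reads (233 TPM) in dsGFP and was 1.13-fold lower (1.10 to 1.16). Pabpc1 thus had 1.98 times the TPM of Pabpc4 in dsNat10 and 0.992 times in dsGFP.

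Genes that compete with or restrain eIF4E were also unequal. Eif4ebp1, an eIF4E-binding inhibitor that mTOR phosphorylates, had 9930 reads (644 TPM) in dsNat10 and 13854 reads (856 TPM) in dsGFP. It was 1.38-fold lower (1.35 to 1.42), a difference close to that of Eif4e. The TPM ratio of Eif4ebp1 to Eif4e was 1.47 in dsNat10 and 1.44 in dsGFP. Eif4enif1, the eIF4E transporter that holds mRNAs in a repressed state, had 1128 reads (17.5 TPM) in dsNat10 and 629 reads (9.04 TPM) in dsGFP and was 1.81-fold higher (1.64 to 2.0). Eif4e2, a cap-binding relative linked to repression, had 4866 reads (215 TPM) in dsNat10 and 5451 reads (219 TPM) in dsGFP and was 1.11-fold lower (1.07 to 1.15), and Eif4g2, a scaffold without the eIF4E site, was 1.11-fold lower (1.09 to 1.13) with fractional counts. Eif4ebp2 had 19 reads in dsNat10 and 97 in dsGFP, 5.05-fold lower (3.07 to 8.75), at a mean under 5 CPM, and the deposited TPM (0.55 in dsNat10 and 0.86 in dsGFP) show a smaller gap. Eif4ebp3 had 0 reads in dsNat10 and 58 in dsGFP, at least 15.1-fold lower by the exact interval. Zero reads were common at this abundance in dsNat10, where they were found for 54.9% of the 2250 genes that had from 10 to below 100 reads in dsGFP. Conversely, 9.98% of the 862 genes with that many in dsNat10 had none in dsGFP.

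**Figure D3:**
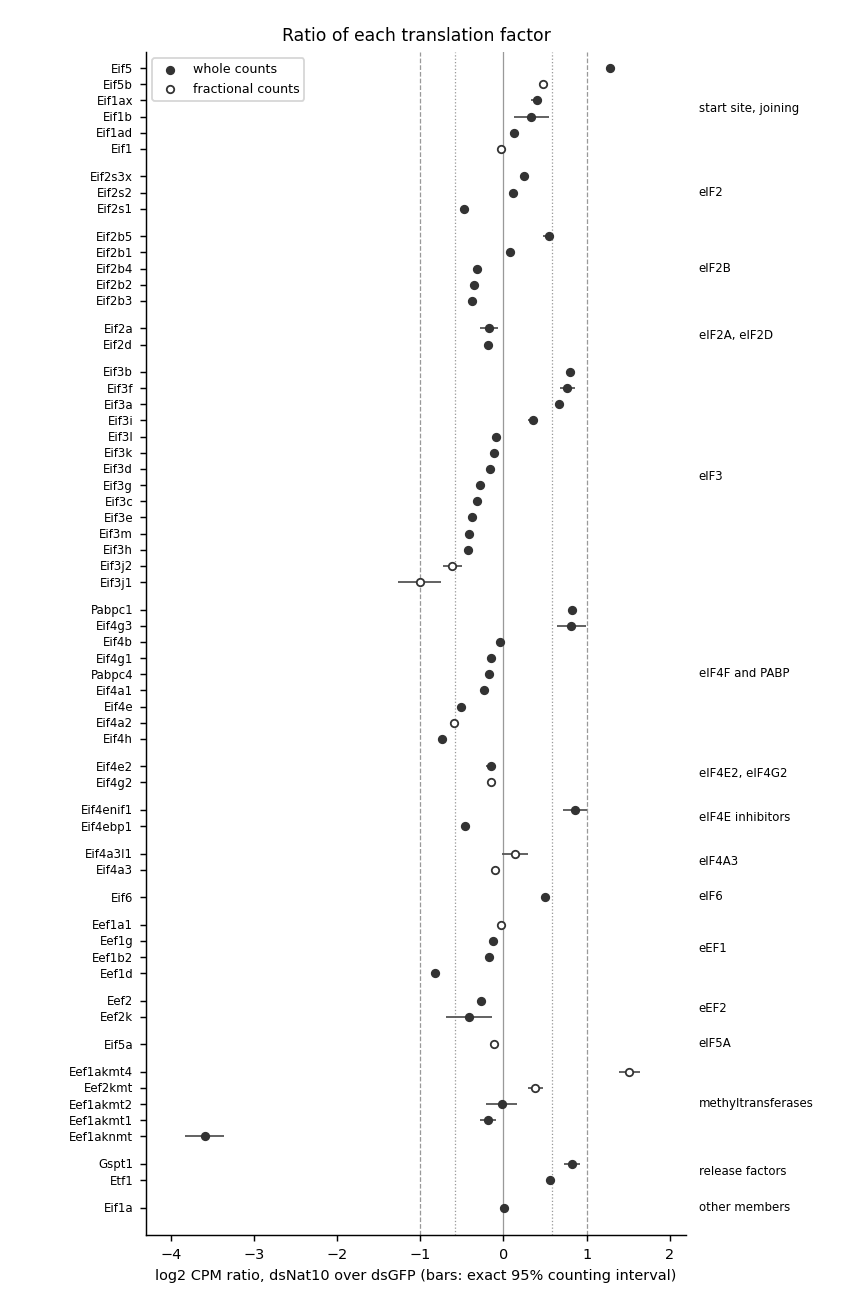
Log2 CPM ratio (dsNat10 over dsGFP, no pseudocount) of the 61 genes that reached 5 CPM, by role, with exact 95% counting intervals as bars, dashed lines at 2-fold and dotted lines at 1.5-fold. Open points have fractional counts. Members of eIF2B, eIF3 and eIF4F lie on both sides of 0, while the 4 eEF1 genes lie below it.

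In elongation, the most abundant factors by TPM, Eif5a, Eef1a1 and Eef1g, lay close to equality. Eef1d and Eef2 lay further below it. Eef1a1, the tRNA carrier, had 60742 reads (1955 TPM) in dsNat10 and 62780 reads (1922 TPM) in dsGFP and was 1.02-fold lower (1.01 to 1.03) with fractional counts, but slightly above 0 in TPM. In the exchange complex of eEF1A, Eef1d had 7815 reads (484 TPM) in dsNat10 and 13994 reads (822 TPM) in dsGFP and was 1.77-fold lower (1.72 to 1.82). Eef1b2, a catalytic subunit, had 8295 reads (245 TPM) in dsNat10 and 9479 reads (266 TPM) in dsGFP (1.13-fold lower). Eef1g, the anchor of Eef1b2, had 30806 reads (1153 TPM) in dsNat10 and 34000 reads (1211 TPM) in dsGFP (1.09-fold lower). Of the 4, Eef1d was the one past 1.5-fold. Eef2, the translocase, had 47486 reads (842 TPM) in dsNat10 and 58013 reads (977 TPM) in dsGFP and was 1.21-fold lower (1.19 to 1.22), and its inhibitory kinase Eef2k had 193 reads (1.81 TPM) in dsNat10 and 259 reads (2.06 TPM) in dsGFP and was 1.33-fold lower (1.10 to 1.61). Eif5a had 155780 reads (6968 TPM) in dsNat10 and 170194 reads (7247 TPM) in dsGFP and was 1.08-fold lower (1.07 to 1.09) with fractional counts. Eif5a2, a tissue-restricted paralogue, had 0 reads in dsNat10 and 155 in dsGFP, at least 41.1-fold lower by the exact interval. In its range (from 100 to below 300 reads in dsGFP) 31.0% of 2142 genes had no read in dsNat10.

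The enzymes that methylate elongation factors held the widest differences among the 61 in both directions. Eef1aknmt (Entrez gene 71449, chromosome 1, 162533671 to 162548541), which methylates the N terminus and a lysine of eEF1A, had 164 reads (3.62 TPM) in dsNat10 and 1995 reads (38.6 TPM) in dsGFP and was 12.0-fold lower (10.3 to 14.2). Eef1akmt4 (Entrez gene 110599566, chromosome 16, 20611601 to 20618869), a lysine methyltransferase of eEF1A, had 1971 reads (127 TPM) in dsNat10 and 697 reads (42.9 TPM) in dsGFP and was 2.86-fold higher (2.62 to 3.12). Its counts are fractional, its exons overlap those of the readthrough gene with Ece2, and 143 of its exon bases overlap Alg3 on the opposite strand. Alg3 had 8454 reads in dsNat10 and 3708 in dsGFP, 2.30-fold higher, and without strand the reads of the shared bases cannot be told apart. Eef2kmt, which methylates eEF2, was 1.31-fold higher (1.22 to 1.39) with fractional counts, while Eef1akmt1, the most abundant of these enzymes, had 1831 reads (142 TPM) in dsNat10 and 2104 reads (155 TPM) in dsGFP and was 1.14-fold lower (1.07 to 1.21), and Eef1akmt2 had 491 reads (27.1 TPM) in dsNat10 and 504 reads (27.4 TPM) in dsGFP. The readthrough gene itself had 0 reads in dsNat10 and 15 in dsGFP.

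Both release factors were higher in dsNat10 without meeting the size rule. Etf1, which encodes eRF1 and reads stop codons, had 13993 reads (205 TPM) in dsNat10 and 9588 reads (134 TPM) in dsGFP and was 1.47-fold higher (1.44 to 1.51). Gspt1, which encodes the GTPase eRF3, had 2553 reads (19.9 TPM) in dsNat10 and 1460 reads (10.8 TPM) in dsGFP and was 1.77-fold higher (1.66 to 1.89), with 239 exon bases overlapped by an opposite-strand gene. The TPM of Etf1 exceeded that of Gspt1 10.3 times in dsNat10 and 12.4 times in dsGFP. Eif6, which keeps free large subunits from joining and acts in their maturation, had 42386 reads (1672 TPM) in dsNat10 and 30233 reads (1134 TPM) in dsGFP and was 1.42-fold higher (1.40 to 1.44). Eif4a3, the helicase of the exon junction complex, had 9837 reads (398 TPM) in dsNat10 and 10660 reads (410 TPM) in dsGFP (1.07-fold lower). Its counts and those of its intronless copy Eif4a3l1 are fractional, and summed they had 10588 reads in dsNat10 and 11349 in dsGFP, 1.06-fold lower (1.03 to 1.09).

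Summed over each group, the start-site factors (with Eif1ad but without Eif1a) had 2529 TPM in dsNat10 and 1537 TPM in dsGFP. This was a 1.65-fold higher sum that rests on Eif5. The release factors had 225 TPM in dsNat10 and 144 TPM in dsGFP, and Eif6 alone 1672 TPM in dsNat10 and 1134 TPM in dsGFP. The sums of eIF3 (4567 TPM in dsNat10 and 4827 TPM in dsGFP), eIF4F with the poly(A)-binding proteins (2149 TPM in dsNat10 and 2383 TPM in dsGFP), and eEF1 (3838 TPM in dsNat10 and 4222 TPM in dsGFP) were each lower in dsNat10 by under 10%. Within eIF3, the subunits a, c, e, f, h, k, l and m had 2916 TPM in dsNat10 and 3160 TPM in dsGFP, and the subunits b, d, g and i had 1624 TPM in each.

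**Figure D4:**
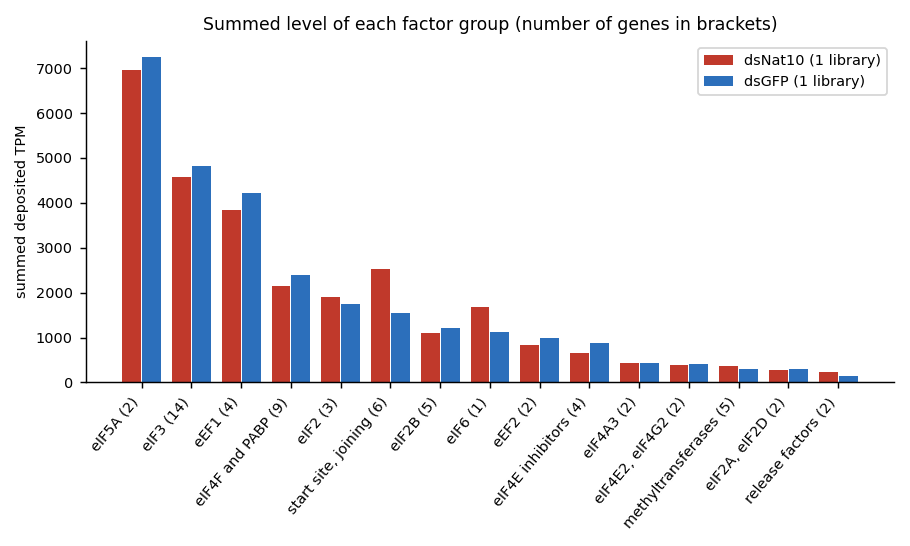
Summed deposited TPM of each group in dsNat10 (red, left) and dsGFP (blue, right), 1 library each, so without error bars. The red bar stands highest above the blue in the start-site group, at 2529 TPM in dsNat10 and 1537 TPM in dsGFP, followed by eIF6, at 1672 TPM in dsNat10 and 1134 TPM in dsGFP.

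Of 39 further genes of the pathway that act on these factors, 36 reached 5 CPM, 0 met the size rule upward and 4 downward (15.2% and 15.3% of all genes), and their median log2 ratio was 0.02. With the fold at 1.5, 5 of the 36 were higher and 6 lower, beside 25.1% and 23.8% of all genes. Among 6 passing genes that set the phosphorylation of eIF2, 2 were lower. Eif2ak4, the kinase that senses uncharged tRNA, had 0 reads in dsNat10 and 539 in dsGFP, in a range where 10.2% of genes were at 0 in dsNat10. Impact, which restrains that kinase, had 722 reads (11.5 TPM) in dsNat10 and 1601 reads (24.0 TPM) in dsGFP and was 2.19-fold lower (2.01 to 2.40). Ppp1r15a, a phosphatase subunit that reverses the mark and the most abundant of the group, was 1.23-fold higher (1.17 to 1.29). Ppp1r15b, its paralogue, was 2.01-fold higher (1.88 to 2.14) but missed the size rule with a log2 ratio of 0.99. Of the 12 regulators of eIF4F and of poly(A)-binding proteins 1 was lower, Mknk1, a kinase of eIF4E, with 12 reads (0.28 TPM) in dsNat10 and 385 reads (7.87 TPM) in dsGFP, 31.8-fold lower (18 to 62.0), while the abundant Paip2, which displaces Pabpc1 from the tail, was 1.27-fold lower (1.23 to 1.31). In the same list of 12, 3 genes were at least 1.5-fold higher and 2 lower, beside 25.1% and 23.8% of all genes. Higher were Larp1, a repressor of ribosomal protein mRNAs, at 1.75-fold (1.70 to 1.81), and Paip1, a partner of Pabpc1, at 1.67-fold (1.56 to 1.79). Pdcd4, an inhibitor of eIF4A, was also higher, at 1.57-fold (1.44 to 1.70) with fractional counts. The helicase Dhx29 was 1.99-fold lower (1.80 to 2.21), while the abundant Larp4 was 1.16-fold higher (1.14 to 1.18) and the helicase Ddx3x 1.36-fold higher (1.32 to 1.40). None of 9 enzymes of hypusine and diphthamide, the modifications of eIF5A and eEF2, met the size rule, and the abundant Dohh was 1.14-fold lower (1.10 to 1.19). In that list the diphthamide enzyme Dph2 was 1.61-fold higher (1.49 to 1.74), and the hypusine enzyme Dhps 1.73-fold lower (1.63 to 1.84) with fractional counts. Of 9 passing genes for reinitiation, recycling and rescue 1 was lower, Abcf1, which binds eIF2, with 4278 reads (74.5 TPM) in dsNat10 and 8921 reads (148 TPM) in dsGFP, 2.06-fold lower (1.99 to 2.14), while Abcf2 had 19678 reads (426 TPM) in dsNat10 and 20322 reads (418 TPM) in dsGFP.

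Sequence features of these genes were also set beside all genes. The coding sequences of the 61 had a median length of 1221 bases, beside 1326 bases over 8580 genes, but at 50 CPM or more it was 1219.5 bases, beside 1143 bases over 3514 genes. The 61 had a median of 28.1% of codons ending in C, beside 29.0%. The 31 factors at or above that median share of C-ending codons had a median log2 ratio of -0.15 and the 30 below it -0.03, while all genes split the same way had 0.02 and -0.01. Promoter windows from RefSeq (GRCm38.p6, 250 bases before to 50 after each start) matched 50 of the 65 genes by gene ID. The E-box CACGTG, the palindromic site bound by Myc and its relatives, was found in any window of 15 of these 50 genes (30.0%, the readthrough gene and Eef1akmt4 both counted), beside 12.4% of 7116 genes at 5 CPM or above and 8.09% of all 27025 genes with windows. Searched on both strands, CCGGAAGT was found in 8 of 50 (16%), beside 11.1% and 4.31% in those 2 sets, and TGACGTCA in 1 of 50 (2%), beside 4.15% and 2.03%, and no E-box overlapped either. The 50 matched genes include some under 5 CPM, such as Eif5a2 and the readthrough gene, both with an E-box. No motif share was computed at like abundance. Genes of the eIF4F core, in which Eif4e is a known Myc target, are shown with 10 flanking bases on each side of the E-box in capitals.
Eif4e: cgccagcgacCACGTGatcacttttt
Eif4e: acacgtccgtCACGTGggcaggagcc
Eif4a1: atcgcctccgCACGTGtaaaggtgct
Eif4g1: cagtgggtgtCACGTGatggggcgga
Eif4g1: ctgcgccggtCACGTGgggcgctggc
They lie at chr3:138527030-138527055 and chr3:138527194-138527219 (Eif4e, plus strand), chr11:69672597-69672622 (Eif4a1, minus) and chr16:20672663-20672688 and chr16:20672732-20672757 (Eif4g1, plus). The 13 factors with an E-box and a mean of 5 CPM or more had a median log2 ratio of -0.15, with 9 below 0, and the 34 without had a median of -0.04, with 20 below 0.

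Counts and length-corrected values gave the same direction of difference for most of these genes. Reads per TPM shifted between the libraries by over 10%, after the overall shift, in 2 of the 61 factors (3.28%), beside 9.38% of 8322 genes above 0 TPM in both. The first was Eif2b3, at -0.37 in the log2 CPM ratio and -0.52 in the log2 TPM ratio, and the other was Eef2k, at -0.36 and -0.12 on the same scales. The sign differed between CPM and TPM in Eif1, Eif4b and Eef1a1, all near equality.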

How the data were processed

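Polyadenylated RNA of 2 pools of mouse morulae was made into SMART-seq2 libraries, per the labels' protocols. The series' design text adds paired-end DNBSEQ sequencing, trimming (Trim Galore), mapping to GRCm38 (HISAT) and counting (HTSeq), names also found in the submitters' processing notes. Program versions were not given in any source used here. In 1 table the authors deposited estimated counts that are not normalized, FPKM values and TPM values for each library. Of its genes 23.2% have a fractional estimated count, among them 13 of the 65 translation factors, which are uncertain because reads may be shared among copies or overlapping genes. Estimated counts were rounded and scaled by TMM with edgeR 4.0.16 in R 4.3.3, and intervals are exact (Clopper-Pearson), from SciPy 1.17.1. No p-value was computed, since each group has 1 library.

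Genes were named in full if called by the size rule, at least 1.5-fold different, the most abundant of their group, or part of eIF2, eEF1, eEF2 or the release factors. Reads of Eif1ax, Eif4b, Eif4e, Pabpc4 and Eef1akmt2 and of members below 5 CPM were added after their values were seen. Of the other pathway genes the rule named the most abundant and those called, and the rest were added after their values were seen. The members, their groups and the other pathway genes were chosen with earlier results of these data known. All 65 Entrez identifiers matched the RefSeq table of GRCm38.p6, and 61 of 61 factors with a mean of 5 CPM or more matched a GENCODE M21 transcript, chosen by APPRIS principal rank, then CCDS membership, then coding length. The size rule was tested on simulated counts. Alternatives were plain totals, DESeq2 1.42.0 size factors, other filters, pseudocounts and folds, the deposited TPM and FPKM, and leaving out fractional counts.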

Additional observations from a re-analysis of the deposited data

How the results depend on the processing

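Of the translation factors, Eif5 and Eef1akmt4 met the size rule upward and Eef1aknmt downward under TMM scaling, and the counts of 2 higher and 1 lower were the same with plain totals, DESeq2 size factors, pseudocounts of 0.5 and 5 CPM, a mean of 20 CPM or more, deposited TPM and deposited FPKM. With no filter on the mean, 4 were lower. With a fold of 1.5, 9 were higher and 6 lower. Without genes of fractional counts 1 was higher, and with the filter at 50 CPM, chosen after seeing the data, 1 was higher and 0 were lower, since fewer genes are counted there. The count of factors below 0 was 38 of 61. It ranged from 30 of 49, without fractional counts, to 42 of 65, with no filter, so the sets differ in size. The median log2 ratio of -0.12 lay between -0.08 and -0.15 under the other alternatives and was -0.057 in deposited TPM, where most ratios shift up, and the cause was not tested. Among 36 genes named by rule the sign turned for Eef1a1 and Eif1 in TPM, as it did for Eif4b outside that rule, and for Eif1a with DESeq2 size factors, all near equality. No paired analysis was possible because there is 1 library per group, and for the same reason no replicate could be left out. Depth limits Eif4ebp2, Eif4ebp3, Eif5a2, Eif3j1 and Eef2k, which have few reads in both libraries.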
